A study of Homo sapiens with 6 samples.

Results

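The ubiquitin E1 and E2 enzyme genes were taken as all protein-coding genes whose symbol is UBA1 to UBA7 or begins with UBE2 and a letter. The rule used names only, no measured value. It found 43 genes, 6 of them E1 and 37 E2, among the 19847 protein-coding genes and 58302 genes in all of the deposited table. Ubiquitin is a small protein that is attached to other proteins and marks many of them for the proteasome. An E1 enzyme activates it with ATP, an E2 enzyme takes it over on a cysteine, and an E3 ligase then directs the E2 to the substrate. Related modifiers such as SUMO, NEDD8 and ISG15 have E1 and E2 enzymes of their own, and several carry UBA or UBE2 symbols. Dividing epithelial tumour cells use this system throughout the cell cycle, since mitotic exit depends on the timed loss of ubiquitinated proteins.

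The libraries come from SW480 and DLD-1, which are established human colorectal cancer (CRC) cell lines labelled as wild type and untreated, both grown in DMEM with serum. For each line there were 3 groups, with 1 library each and no replicates. The Input is total RNA, RIP is RNA pulled down from lysate with an antibody against the acetyltransferase NAT10, and acRIP is fragmented RNA pulled down with an antibody against N4-acetylcytidine (ac4C). NAT10 is the known enzyme that writes ac4C into RNA, and the study asked which transcripts it binds and which carry the mark. Levels are FPKM (fragments per kilobase, divided by the size of the library), so each value is a share of its library and not an amount per cell. With 1 library per group no test between conditions could be made. The errors below (± 1 standard error, SE) cover counting alone, and the members are described beside all protein-coding genes that passed the same filter.

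The 4 libraries with FPKM columns differed in depth and went against their labels. Whole reads solved from the FPKM values came to no fewer than 25583114 for the RIP library and 11468168 for the Input labelled SW480, and to 21099421 and 10848878 in those labelled DLD-1. Over 16196 protein-coding genes, log2 FPKM in the RIP library labelled SW480 had a Pearson r of 0.944 with the Input labelled DLD-1 and 0.871 with its own. The RIP library labelled DLD-1 had 0.951 with the Input labelled SW480 and 0.856 with its own. The epithelial marker KRT20 was listed at 0 in the RIP library labelled SW480, against 29.2 FPKM in the Input of that label, and at 23.9 in the RIP library labelled DLD-1, against 0.0426. Whether libraries were exchanged was not tested. Labels were kept, libraries are named by label, and RIP results are also given over the Input that carries the other line's label, called the other Input below. Of the 10 colorectal epithelial markers, 7 passed the filter, and the summed levels of 4 fibroblast, 3 leukocyte and 2 endothelial markers were below 1 FPKM in each of the 4 libraries.

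Both Inputs held at least 1 FPKM for 36 of the 43 members and for 10350 protein-coding genes, and ratios are given for these. Of the other 7, UBE2QL1 was at 0 in all 4 libraries, and UBE2F-SCLY, UBE2L5, UBE2Q2L and UBE2U were at 0.137 FPKM or lower in each. UBA7 and UBE2W lay close to the limit. Within the 36, the median level was 15.6 and 17.8 FPKM in the Inputs labelled SW480 and DLD-1, against 9.96 and 10.4 for protein-coding genes. In the RIP libraries it was 21.3 and 22.3, against 11.8 and 11.1. The 43 members together made up 0.222% and 0.248% of protein-coding FPKM in the Inputs, and 0.323% and 0.317% in the RIP libraries. The highest members by mean Input were UBA1 (91.5 FPKM), UBE2S (67.9) and UBE2C (53.3), and UBE2D4 (3.50) and UBE2V1 (4.66) were among the 3 lowest that passed.

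**Figure D1:**
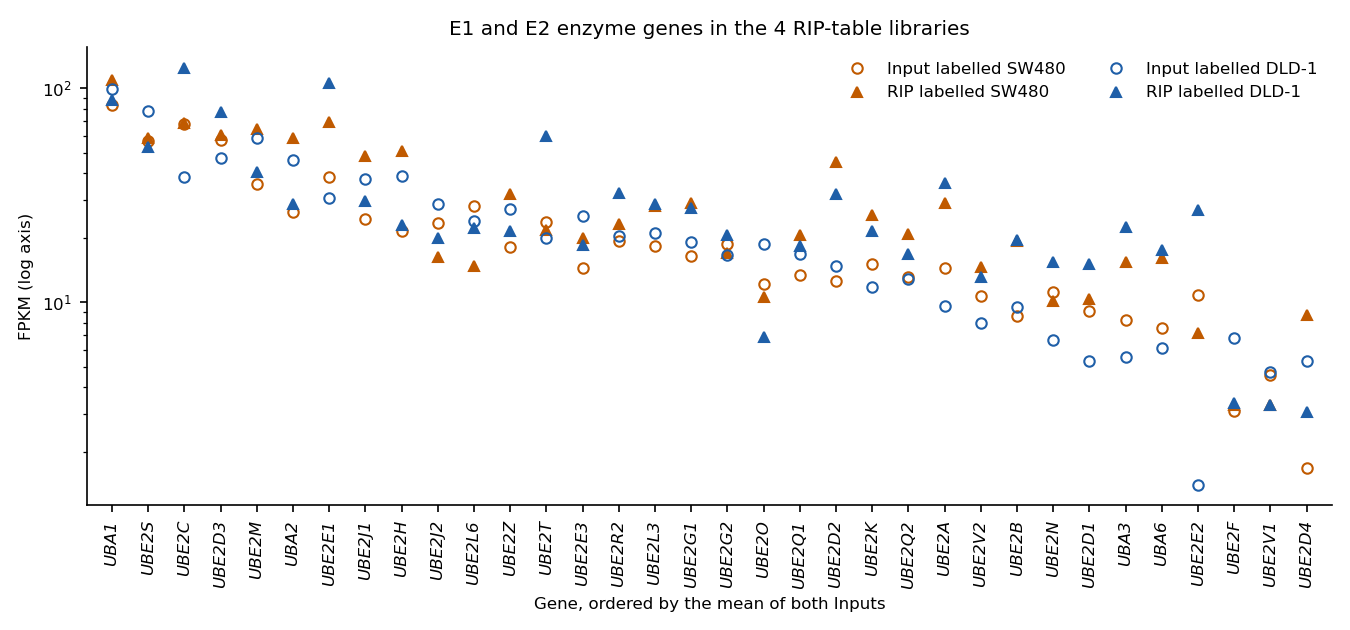
Level of 34 of the 36 E1 and E2 genes that passed the filter, in FPKM on a log axis, in the 2 Inputs (open circles) and 2 RIP libraries (filled triangles), 1 library per point and no replicates. Genes are ordered by the mean of both Inputs, from UBA1 at 91.5 FPKM to UBE2D4 at 3.50 FPKM. For UBE2E2, UBE2T and several other genes, such as UBE2C and UBE2E1, the RIP library labelled DLD-1 (blue triangle) lies above the other 3 points.

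The RIP-to-Input ratio was taken as log2((RIP FPKM + 1)/(Input FPKM + 1)), in which the added 1 damps the ratios of weakly expressed genes. Over the 36 members its median was 0.59 for the label SW480 and 0.47 for DLD-1, where protein-coding genes had medians of 0.18 and 0.07. Over the other Input the member medians were 0.39 and 0.43, beside 0.11 and 0.09. Members thus lay above the protein-coding median in both pairings. RIP exceeded Input by any amount for 28 members labelled SW480 (58.0% of protein-coding genes) and for 22 labelled DLD-1 (52.9%). Over the other Input it did so for 29 (57.0%) and 31 (55.1%). The same 29 were above it in both RIP libraries, which 46.6% of protein-coding genes were. With each RIP library over its own Input, 18 members lay above in both labels (31.6%), 4 lay below in both (20.8%) and 14 had opposite signs (47.6%), a number that was 2 over the other Input (19.0%).

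At least 2-fold above Input were 6 of 36 members for the label SW480, 16.7% of them, where 17.4% of protein-coding genes were. Among them were UBA2, UBE2B, UBE2D2, UBE2D4 and UBE2H. For the label DLD-1 there were 12, or 33.3%, against 16.7% of protein-coding genes, among them UBA3, UBA6, UBE2A, UBE2C, UBE2D1, UBE2D2, UBE2E1, UBE2E2, UBE2N and UBE2T. After centring on the protein-coding medians the counts were 4 (13.1%) and 11 (15.2%). UBE2D2 was 1 of 2 members that passed in both labels, which 3.86% of protein-coding genes did. Over the other Input 9 passed with the RIP library labelled SW480 (10.1%) and 10 with that labelled DLD-1 (10.0%). These had 8 in common, where 6.15% of protein-coding genes passed with both, and UBA3, UBA6, UBE2A, UBE2D2, UBE2E1 and UBE2E2 were among these. At least 2-fold below Input was no member labelled SW480 (9.17% of protein-coding genes) and 1 labelled DLD-1 (12.8%), UBE2O, and none was 2-fold below the other Input (3.93% and 4.51%).

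**Figure D2:**
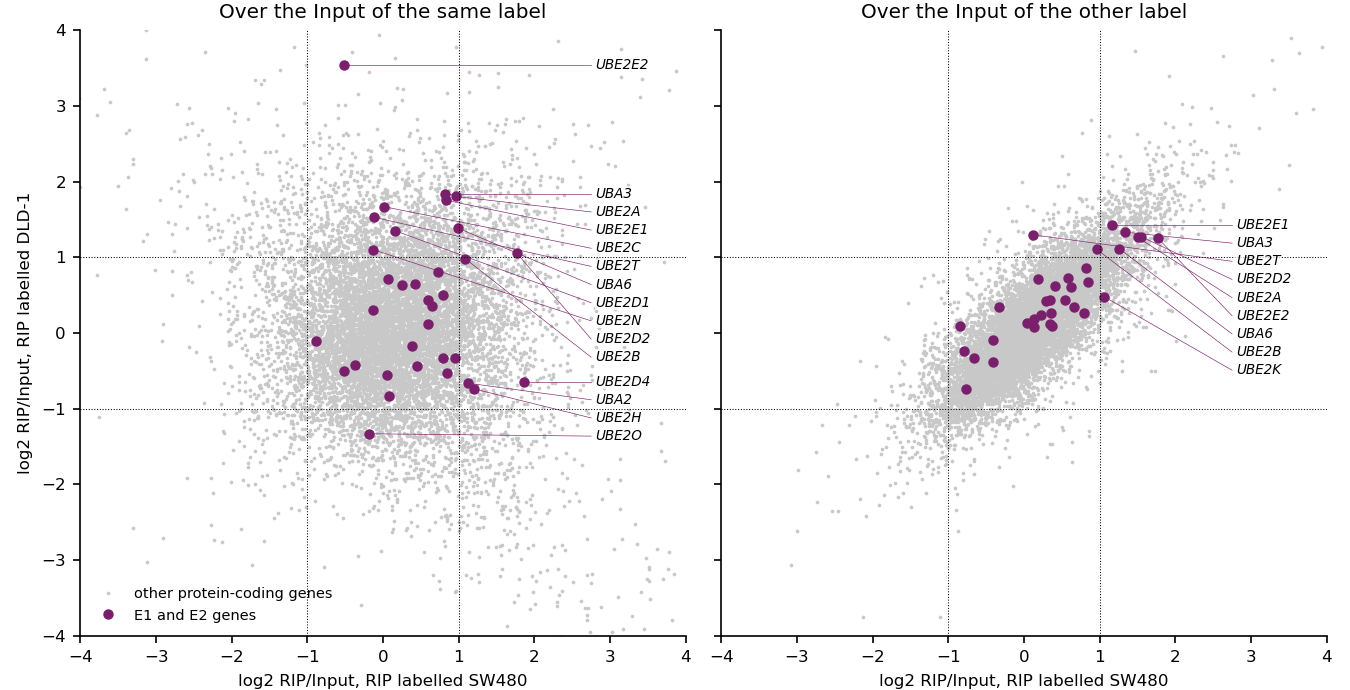
log2 RIP/Input of the RIP library labelled SW480 (horizontal) against that labelled DLD-1 (vertical), over the Input with the same label (left) and over the other Input (right), with 34 E1 and E2 genes in purple, other protein-coding genes in grey and dotted lines at 2-fold. On the left UBE2E2 stands highest at 3.55 and UBA2, UBE2D4 and UBE2H lie right of 2-fold but below 0 on the vertical axis, while on the right only UBE2E3 and UBE2F have opposite signs. The axes end at 4, which leaves 41 grey genes out on the left and 5 on the right.

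Among the E1 enzymes, UBA1 and UBA6 activate ubiquitin itself. UBA1, the main ubiquitin E1, stood at 109 FPKM in the RIP library and 83.6 in the Input labelled SW480, and at 88.6 and 99.5 in those labelled DLD-1. Its log2 ratio was 0.38 ± 0.03 and -0.17 ± 0.03, so the labels gave opposite signs, while over the other Input it was 0.14 and 0.08. With the scaled Inputs of the acRIP table it was positive throughout, at 0.93 and 0.56 for the same label and 0.86 and 0.62 for the other. UBA1 is also a gene the study picked with the help of these libraries, so its values are no independent evidence. UBA6, which also activates the modifier FAT10, read 16.0 and 7.60 FPKM labelled SW480 and 17.6 and 6.10 labelled DLD-1. Both RIP libraries were above both Inputs for UBA6, with log2 ratios of 0.99 ± 0.04 and 1.39 ± 0.05, or 1.26 and 1.11 over the other Input.

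The E1 subunits of other modifiers fell into different patterns. UBA3, the catalytic subunit of the NEDD8 E1, was at 15.4 FPKM in RIP and 8.29 in Input labelled SW480, and at 22.4 and 5.54 labelled DLD-1. Both RIP values lay above both Inputs. Its log2 ratios were 0.82 ± 0.09 and 1.84 ± 0.10, and 1.33 in both RIP libraries over the other Input. UBA2, the catalytic subunit of the SUMO E1, was at 58.8 and 26.4 FPKM labelled SW480 and at 28.8 and 46.2 labelled DLD-1. Its groups overlapped, with the RIP library labelled DLD-1 near the Input labelled SW480, and its log2 ratios of 1.12 ± 0.04 and -0.66 ± 0.04 had opposite signs. With the other Input they became 0.34 and 0.12. UBA7, the ISG15 E1, ranged from 0.734 to 1.31 FPKM in the 4 libraries.

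E2 enzymes of other modifiers also differed among themselves. UBE2M and UBE2F are the NEDD8 E2 enzymes. UBE2M read 64.5 and 35.5 FPKM labelled SW480 and 40.4 and 58.9 labelled DLD-1, with log2 ratios of 0.84 ± 0.06 and -0.53 ± 0.05 that became 0.13 and 0.18 over the other Input. UBE2F read 3.32 and 3.11, and 3.37 and 6.80, and had the lowest member ratio over the other Input, -0.85 ± 0.12 for the RIP library labelled SW480. UBE2L6, the ISG15 E2, lay below Input in both labels, at -0.89 ± 0.08 and -0.10 ± 0.08, with 14.8 and 22.2 FPKM in the RIP libraries and 28.3 and 24.0 in the Inputs, and had -0.66 and -0.34 over the other Input. UBE2Z, which is charged by UBA6, had 32.1 and 18.2 FPKM labelled SW480 and 21.5 and 27.3 labelled DLD-1, and ratios of 0.79 and -0.33 that became 0.22 and 0.23 over the other Input.

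The broad E2 enzymes work with many E3 ligases, and the UBE2D family is the most widely used of them. UBE2D2 was at 45.2 FPKM in RIP and 12.6 in Input labelled SW480, and at 31.9 and 14.8 labelled DLD-1. Its log2 ratios of 1.76 ± 0.06 and 1.06 ± 0.07 passed 2-fold in each label, and those over the other Input did too, at 1.55 and 1.27. The call labelled DLD-1 was lost after centring (0.99) and over the Input of that label in the acRIP table (0.86). UBE2D1 read 10.3 and 9.11, and 15.1 and 5.32 FPKM, and reached 2-fold only with the labels DLD-1 (1.35 ± 0.10), not over the other Input (0.84 and 0.67). UBE2D3, the most abundant of the 4, read 60.4 and 57.4, and 77.9 and 47.3 FPKM, with ratios of 0.07 ± 0.03 and 0.71 ± 0.03, or 0.34 and 0.43 over the other Input. UBE2D4 turned over between labels. It stood at 8.71 and 1.67 FPKM labelled SW480 and at 3.06 and 5.33 labelled DLD-1, which gave 1.86 ± 0.10 and -0.64 ± 0.10, and 0.62 and 0.60 over the other Input. The smallest read number behind it was 97, in the Input labelled SW480.

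UBE2E2 showed the largest member difference between labels. It read 7.18 FPKM in RIP and 10.8 in Input labelled SW480, and 27.0 and 1.40 labelled DLD-1. Its high values thus sat in the RIP library of one label and the Input of the other. The log2 ratios were -0.52 ± 0.08 and 3.55 ± 0.12, the latter an 11.7-fold ratio on 52 Input reads, and 1.77 ± 0.13 and 1.25 ± 0.07 over the other Input. UBE2E1, its close relative, read 69.5 and 38.6, and 106 and 30.6 FPKM, with ratios of 0.83 ± 0.05 and 1.75 ± 0.06, or 1.16 and 1.43 over the other Input. UBE2E3 read 20.0 and 14.4, and 18.5 and 25.4 FPKM, and was one of 2 members, with UBE2F, whose signs were opposite over the other Input as well (-0.33 ± 0.07 and 0.34 ± 0.09). UBE2H was at 50.8 and 21.5 FPKM labelled SW480 and at 23.0 and 39.1 labelled DLD-1, with ratios of 1.20 ± 0.04 and -0.74 ± 0.04 that became 0.37 and 0.10 over the other Input, where neither was 2-fold and both were above 0. UBE2L3, which serves HECT and RBR ligases, had 28.2 and 28.9 FPKM in the RIP libraries and 18.3 and 21.1 in the Inputs, with ratios of 0.41 and 0.63 over the other Input. UBE2W, which modifies protein N termini, missed the filter with Inputs of 0.942 and 1.14 FPKM, and its RIP values were 4.05 and 4.96.

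UBE2C and UBE2S charge and extend ubiquitin chains for the anaphase-promoting complex in mitosis, and UBE2T acts in the Fanconi anaemia pathway. UBE2C read 68.6 FPKM in RIP and 68.0 in Input labelled SW480, and 125 and 38.5 labelled DLD-1. Its ratio was 0.01 ± 0.06 in the first pair and 1.67 ± 0.07 in the second, and the other Input brought these to 0.82 and 0.87. UBE2S differed from UBE2C, with 58.9 and 57.0, and 53.2 and 78.7 FPKM, and ratios of 0.05 ± 0.04 and -0.56 ± 0.04, or -0.41 and -0.10 over the other Input. UBE2T was high in 1 library only. It read 59.7 FPKM in the RIP library labelled DLD-1, against 21.7 in the other RIP library and 23.7 and 20.0 in the Inputs, so that its ratios were -0.12 ± 0.10 and 1.53 ± 0.10, and 0.11 and 1.30 over the other Input.

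UBE2A and UBE2B, the human RAD6 proteins, act with UBE2N and its inactive partners UBE2V1 and UBE2V2 in DNA damage tolerance and lysine-63 chains. UBE2A was at 29.1 FPKM in RIP and 14.5 in Input labelled SW480, and at 36.2 and 9.64 labelled DLD-1, with ratios of 0.96 ± 0.09 and 1.81 ± 0.11, and both RIP libraries passed 2-fold over the other Input, that labelled DLD-1 at 1.26. UBE2B read 19.4 and 8.60, and 19.6 and 9.46 FPKM, so its ratios of 1.09 ± 0.08 and 0.98 ± 0.08 lie just on either side of 2-fold and differ by less than their counting error, and those over the other Input were 0.96 and 1.10. UBE2N read 10.2 and 11.2, and 15.5 and 6.67 FPKM, with ratios of -0.13 ± 0.06 and 1.10 ± 0.07. Over the other Input they were 0.54 and 0.43, so the 2-fold call and the opposite signs were not found there. The 2 variants lay on different sides of 0 over these Inputs. UBE2V1 was below Input in both labels (-0.38 ± 0.16 and -0.42 ± 0.17, on levels of 3.29 to 4.73 FPKM), and UBE2V2 was above it (0.42 ± 0.06 and 0.65 ± 0.07, on 8.0 to 14.6 FPKM). Over the other Input UBE2V1 had -0.41 and -0.38, and UBE2V2 had 0.80 and 0.27. The Inputs of the acRIP table held UBE2V1 at 1.89 and 0.863 before scaling, beside protein-coding medians of 6.77 and 6.79. Over these Inputs after scaling, of the same or the other label, UBE2V1 lay above 0 in both RIP libraries, as UBE2V2 did. The side of 0 on which UBE2V1 lay thus depended on the Input used. The table also holds 15 pseudogenes named after UBE2V1, the most of any member, and how reads that fit several copies were counted is not given in the sources used here.

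Of the 6 E2 enzymes of the endoplasmic reticulum or of chain extension, none was at least 2-fold from Input in either label, and UBE2K was over the other Input (1.06 ± 0.05 for the RIP library labelled SW480). UBE2G1 (0.80 and 0.51), UBE2K (0.73 and 0.81) and UBE2R2 (0.25 and 0.64) had log2 ratios above 0 in both. Over the other Input they did too (0.58 and 0.72, 1.06 and 0.48, and 0.18 and 0.71). With the scaled Inputs of the acRIP table UBE2K had -0.09 and 0.33 for the same label, and 0.58 and -0.34 for the other. UBE2R2 also had ratios of both signs there, while UBE2G1 stayed above 0. UBE2J2, an endoplasmic reticulum E2, lay below Input in both, at -0.52 ± 0.06 and -0.51 ± 0.06, with 16.2 and 19.9 FPKM in the RIP libraries and 23.6 and 28.8 in the Inputs, or -0.79 and -0.23 over the other Input. With the scaled Inputs of the acRIP table its ratios were 0.26 and 0.10 for the same label, and -0.19 and 0.55 for the other. The side of 0 on which UBE2J2 lay thus depended on the Input used. Its relative UBE2J1 had ratios of 0.95 ± 0.04 and -0.33 ± 0.04 on 48.3 and 24.6, and 29.7 and 37.6 FPKM, and 0.35 and 0.26 over the other Input. UBE2G2 had -0.13 ± 0.05 and 0.30 ± 0.05, or 0.04 and 0.13 over the other Input. Among the large or atypical E2 genes, UBE2O, a combined E2 and E3 enzyme, read 10.6 and 12.1 FPKM labelled SW480 and 6.85 and 18.8 labelled DLD-1. Both RIP values lay below both Inputs, the ratios were -0.18 ± 0.05 and -1.33 ± 0.06, and those over the other Input were -0.77 and -0.74. UBE2Q1 (0.59 and 0.12) and UBE2Q2 (0.64 and 0.36) lay above 0, also over the other Input (0.28 and 0.43, and 0.66 and 0.34). With the scaled Inputs of the acRIP table UBE2Q1 lay below 0 and UBE2Q2 had ratios of both signs.

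Next, the lines were compared with each other, Input with Input and RIP with RIP. The Inputs were at least 2-fold apart for 2 members, UBE2E2 and UBE2D4, where 15.6% of protein-coding genes were (6.66% higher under the label SW480 and 8.95% under DLD-1). On the FPKM + 1 scale UBE2E2 was 4.89-fold higher in the Input labelled SW480 and UBE2D4 was 2.37-fold higher in the Input labelled DLD-1. Both were more than 2-fold apart the same way in the Inputs of the acRIP table (6.30 and 1.02, and 1.72 and 6.32). There 32 of 36 members kept the order of the Inputs (85.1% of protein-coding genes). Whether those Inputs are separate libraries or the same ones counted again is not given in the sources used here, so this is not replication. The RIP libraries were at least 2-fold apart for 5 members (13.6%). UBA2, UBE2D4 and UBE2H were higher in that labelled SW480, and UBE2E2 and UBE2T in that labelled DLD-1. The order of the RIP libraries was opposite to that of the Inputs for 27 of the 36 members, or 75.0%, and for 78.3% of protein-coding genes, so the members share this with the table as a whole.

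**Figure D3:**
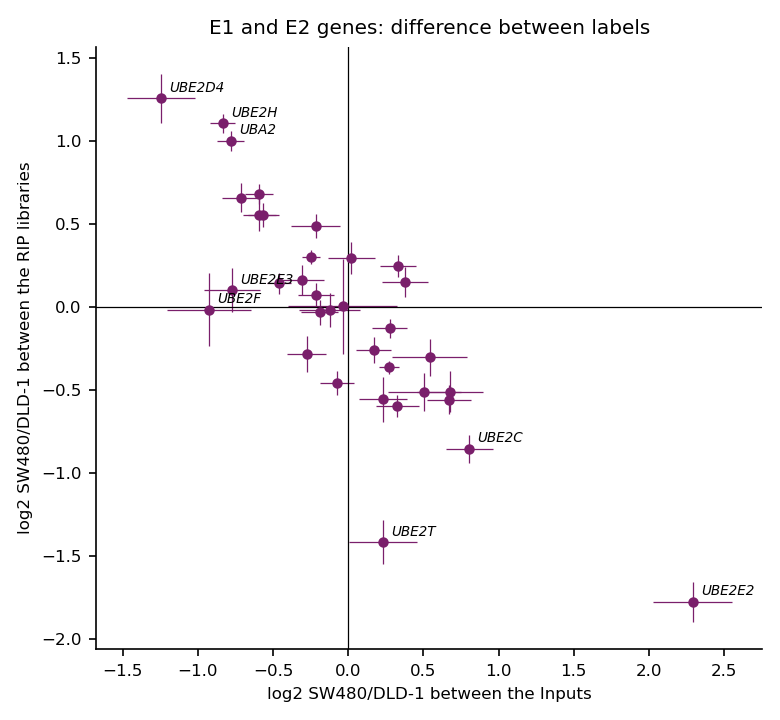
log2 ratio of the label SW480 to the label DLD-1 between the Inputs (horizontal) and between the RIP libraries (vertical) for 34 E1 and E2 genes, with bars for the 95% counting interval. Points run from the upper left to the lower right, from UBE2D4 at -1.25 and 1.26 to UBE2E2 at 2.29 and -1.78, and UBE2T lies low on the vertical axis alone.

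The acRIP-seq peaks were then examined, which are exonic stretches where the ac4C pull-down exceeded Input. The list labelled SW480 held 39 peaks in 22 of the 43 members, and that labelled DLD-1 held 69 in 33. A list called on both libraries together held 67 in 30. Of the 36 members that passed the filter, 21 had a peak in the list labelled SW480 (51.1% of protein-coding genes) and 31 in the list labelled DLD-1 (56.8%), or 58.3% and 86.1% of members, and 28 had one in the pooled list (63.6%). The same 21 had peaks in both lists, which 40.3% of protein-coding genes did. The other 10 had one in the list labelled DLD-1 only (16.5%), among them UBA3, UBE2D1, UBE2E1, UBE2E2, UBE2E3, UBE2H, UBE2O, UBE2Q1 and UBE2T. UBE2B, UBE2D4, UBE2J1, UBE2L6 and UBE2Q2 had none in either list, as 32.3% of protein-coding genes did not. Members with a peak had higher Inputs than those without. Their median was 18.2 against 13.0 FPKM for the label SW480, and 18.8 against 12.9 for DLD-1. The same held for protein-coding genes (14.2 against 6.90, and 13.9 against 6.68), and the part of the Input level in the share of members with peaks was not tested.

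Among members, the RIP-to-Input ratio was lower with a peak in one label and higher in the other. Genes were split throughout by the peak list with the label of the RIP library, and a split by the other list was not made. For the label SW480 the median log2 ratio was 0.42 in 21 members with a peak and 0.64 in 15 without, and over the other Input 0.34 and 0.62. For the label DLD-1 it was 0.64 in 31 with a peak and -0.10 in 5 without, and over the other Input 0.43 and 0.34. Protein-coding genes had the higher median with a peak in both labels, at 0.21 against 0.14 and 0.20 against -0.12, and over the other Input at 0.14 against 0.09 and 0.18 against -0.03. UBE2B was near 2-fold in both labels and had no peak, while UBE2S had the peak with the highest fold and ratios near or below 0.

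The member peak with by far the highest fold was in UBE2S, on chromosome 19 at 55401423 to 55404078 (GRCh38, minus strand, coding sequence). The authors' fold, which is acRIP over Input in the peak, was 1380 in the list labelled SW480 and 447 in the DLD-1 list. These exceeded 99.5% of the peaks of each list. The peak had the same bounds in both and covered 511 exonic bases in 2 blocks. UBE2K followed in the list labelled SW480 with a fold of 197 in the 3′ UTR (chromosome 4, 39777718 to 39778597, plus strand), and there the overlapping peak labelled DLD-1 had 18.5. UBE2M had 174 and 28.5 in overlapping coding-sequence peaks (chromosome 19, 58555830 to 58556593 in the list labelled SW480), UBE2J2 had 139 and 50.6 (chromosome 1, 1254923 to 1255340), and UBE2V1 had 106 and 166 in its 3′ UTR. UBE2D3 was higher in the list labelled DLD-1, with 157 against 36.1 (chromosome 4, 102796061 to 102796421). UBE2T had a fold of 134 in its coding sequence in the list labelled DLD-1 and no peak in the other list. Folds compare acRIP with Input inside 1 list, and their sizes were not tested between lists. Some peaks of different genes had the same fold and the same p-value. Examples are UBA2 and UBE2R2 labelled SW480 (71.8), and UBA2 and UBE2K labelled DLD-1 (18.5). How many reads each fold rests on was not examined, so the sizes of folds should be read with care. The authors' p-values were also lowest for the UBE2S peak in both lists, in that labelled SW480 tied with the UBA1 peak. Below UBE2S they put the member peaks in a different order.

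**Figure D4:**
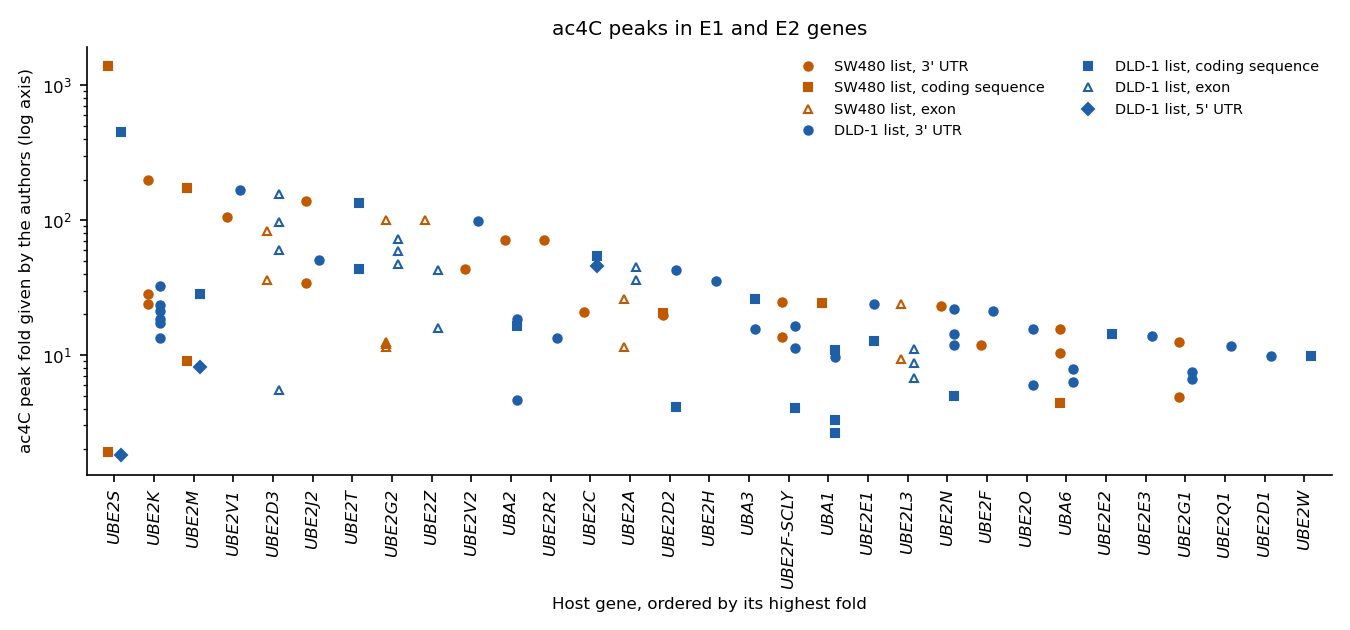
Fold of each ac4C peak in 31 E1 and E2 genes, as given by the authors, on a log axis, with the list labelled SW480 in orange (37 peaks) and that labelled DLD-1 in blue (65 peaks), and a symbol for the place in the transcript. UBE2S stands apart at 1380 and 447, and the next highest are UBE2K at 197 and UBE2M at 174, both labelled SW480.

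Among the E1 genes, UBA1 had 1 peak of fold 24.1 labelled SW480 (chromosome X, 47214553 to 47215098), which a peak of fold 9.62 labelled DLD-1 overlapped, and 3 further peaks in the latter list had folds of 2.65 to 10.8. UBA2 had overlapping 3′ UTR peaks of fold 71.8 and 18.5 with 1 shared start at 34469636 on chromosome 19. The peaks of UBA6 had low folds, of 4.42 to 15.6. UBA3 had 2 peaks in the list labelled DLD-1, with folds of 15.7 and 26.0. UBE2G2 had the most peaks labelled SW480, 4, and UBE2K the most labelled DLD-1, 6, all of the latter in its 3′ UTR. The read-through gene UBE2F-SCLY had 2 and 3 peaks, while its Inputs read 0.0471 and 0 FPKM. In each list 1 of them shared bases with the UBE2F peak (folds 11.8 and 21.2), 145 bases labelled SW480 and 91 labelled DLD-1, and for that pair the host cannot be told apart. The others shared no base with it. They were not compared with the exons of UBE2F or SCLY, so their host gene is not settled either.

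Peaks overlapped between the lists, by at least 1 base on the same strand, for 30 of 39 member peaks labelled SW480 (76.9%) and 27 of 69 labelled DLD-1 (39.1%). For all peaks of protein-coding hosts the shares were 56.0% and 36.2%. Member peaks were matched to member peaks only, and those of protein-coding hosts to every peak of the other list, so the shares are not strictly alike. With an overlap of at least 50% of each peak, 16 member peaks in either list remained (41.0% and 23.2%), and the share for protein-coding hosts was not computed. The place in the transcript, as the authors give it, was the 3′ UTR for 21 member peaks labelled SW480 (53.8%, 95% Wilson interval 38.6 to 68.4) and 33 labelled DLD-1 (47.8%, 36.5 to 59.4), beside 56.3% and 43.2% of all peaks of protein-coding hosts. The coding sequence held 17.9% (8.98 to 32.7) and 24.6% (16.0 to 36.0), beside 25.8% and 40.0%. The class exon, which names no coding part, held 28.2% and 23.2%, beside 16.6% and 15.0%, with all peaks of UBE2D3, UBE2G2, UBE2L3, UBE2A and UBE2Z in it. These intervals take peaks as independent, which peaks of 1 gene are not. The median fold was 23.9 and 16.3, beside 19.8 and 14.7.

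The lists also mark where CNNCNNCNNCNN occurs on the transcript strand, a motif of 12 bases with 4 Cs evenly spaced and N for any base. At least 1 site lay in 15 of 39 member peaks labelled SW480 (38.5%, Wilson 24.9 to 54.1) and in 30 of 69 labelled DLD-1 (43.5%, 32.4 to 55.2), beside 56.2% and 54.8% of all peaks of protein-coding hosts. The UBE2S peak held 2 sites, and the UBE2V1 peak labelled DLD-1, with 1796 bases the longest member peak, held 15. To read the letters of such sites, the peaks labelled DLD-1 were laid over the RefSeq promoter windows of their own genes, leaving out minus-strand peaks of several exon blocks. Sites fell inside a window for 1 member peak, that of UBE2M with a fold of 8.13 at chr19:58558517-58558871 on the minus strand, classed as 5′ UTR, which no UBE2M peak labelled SW480 overlapped. Of its 5 listed sites, 4 lie whole within the window (GRCh38.p14, chr19:58558562-58558861). They are shown to let a reader see what the pattern looks like in a member, and were chosen for this overlap after the values were seen. Each line gives the site with 6 bases on either side, 5′ to 3′ on the transcript strand, with the 4 spaced Cs of the site in capitals:

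UBE2M site at 58558824 to 58558835: cccgccCgcCgtCacCgcagctgc

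UBE2M site at 58558800 to 58558811: cgtgtcCtcCtcCcaCccctagcc

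UBE2M site at 58558784 to 58558795: ccctagCcgCacCccCtcgcggag

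UBE2M site at 58558721 to 58558732: ccgagtCcgCagCtgCagcggggc

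Between the capitals the letters differ from site to site, as the pattern leaves them free. Counted from the RefSeq start used for the window, the sites begin at -224, -200, -184 and -121, so that they lie upstream of it, while the authors class the peak as 5′ UTR. The pattern is common in such windows. Of 35116 promoter windows of 300 bases, 74.9% hold at least 1 site on the transcript strand (90.3% on either strand) and 23.1% hold at least 4 that do not overlap. The UBE2M window is 35.0% C, where the median window is 28.0%.

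The other genes of the pathway were listed by role and not by how they moved. Of 24 ubiquitin genes, modifiers and partners with other names, 23 passed the filter, and 2 labelled SW480 (17.4% of protein-coding genes) and 8 labelled DLD-1 (16.7%) were at least 2-fold above Input, with none below in either (9.17% and 12.8%). Over the other Input 5 and 4 were above (10.1% and 10.0%) and none below (3.93% and 4.51%). Their medians were 0.24 and 0.50, and 0.46 and 0.39 over the other Input. The polyubiquitin gene UBB, outside the E1 and E2 set, was at 569 FPKM in RIP and 160 in Input labelled SW480 and at 576 and 135 labelled DLD-1, and its ratios of 1.83 ± 0.03 and 2.08 ± 0.03 passed 2-fold in both, as did 2.06 and 1.84 over the other Input. SAE1, the partner of UBA2 in the SUMO E1, had 0.24 ± 0.04 and -0.85 ± 0.04, and was below the other Input in both (-0.23 and -0.38). NAE1, the partner of UBA3, had 0.84 ± 0.05 and 0.50 ± 0.06, or 0.80 and 0.54 over the other Input. CDC34, an E2 that works with cullin ligases, lay below Input at -0.78 ± 0.06 and -0.12 ± 0.06, and below the other Input at -0.55 and -0.35.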

How the data were processed

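RIP-seq and acRIP-seq of SW480 and DLD-1 cells were processed by a sequencing provider. The submitters' processing notes name cutadapt 2.5, HISAT2 2.1.0 and the builds GRCh38, hg38 and GRCm38. The counting tool, strand setting and peak caller are not given in the sources used here. The authors deposited FPKM values for RIP and Input, a second table with Input values read here as FPKM because their unit is not named, and 3 ac4C peak lists (per library and pooled). In the lists, the authors deposited for each peak a p-value, log10 scores of it and of its FDR (spreadsheet errors where the p-value is 0), a fold ratio of acRIP over Input, and starts counted from 0, printed here from 1. The authors' columns of RIP/Input ratios and of their mean hold their own comparison and were not used.

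Samples were grouped by the titles given by the submitters, 1 library per group. By these titles each line has 1 Input sample, and the Input columns of both tables were assigned to it. Over protein-coding genes the 2 columns had a Pearson r of 0.963 for SW480 and 0.957 for DLD-1. The ratios are over Input, as the labels and columns name it. The published results mention IgG where the columns name Input, so which control these columns hold rests on their names. Whole reads were solved as the smallest whole numbers that fit the FPKM columns within 0.01 reads, for 23501 of 23515 genes above 0 in at least 2 columns and for all 39 such members, so counting errors are upper limits. They do not cover PCR copies or biological spread. Ratios used a pseudocount of 1 FPKM, an Input of at least 1 FPKM in both Inputs, and a 2-fold call. The depth of the acRIP libraries is unknown. Solving and ratios were tested on simulated data. Alternatives were another pseudocount, filter, centring, Input, call size, peak threshold and overlap. Named were all E1 genes, members called against Input or between Inputs, members with peaks in both lists, the UBE2D family and the 3 highest and 3 lowest by Input. The members and lists were chosen with earlier results of these data known. UBE2NL is listed as a polymorphic pseudogene and lies outside the rule. RefSeq promoter sequence (GRCh38.p14) was found for 32 of the 43 members. Python 3.11.15, numpy 2.4.6, pandas 2.3.3, scipy 1.17.1 and matplotlib 3.10.9 were used. Values of a few genes of the set and of the pathway are not reported here, although counts and medians include them.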

Additional observations from a re-analysis of the deposited data

Results flagged for a closer look

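For 11 of the 36 members, or 30.6%, the log2 RIP/Input ratio had opposite signs in the 2 labels with each ratio beyond its 95% counting interval, which drew attention to them. Of protein-coding genes with solved reads, 36.4% did the same. The difference between labels, SW480 minus DLD-1, was -4.07 for UBE2E2, -1.23 for UBE2N and -0.43 for UBE2G2. It was 2.5 for UBE2D4, 1.94 for UBE2H, 1.79 for UBA2, 1.37 for UBE2M, 1.28 for UBE2J1, 1.12 for UBE2Z, 0.88 for UBE2E3 and 0.55 for UBA1. With 1 library per group these differences were not tested. Over the Input with the other label only UBE2E3 of these 11 kept opposite signs. With the scaled acRIP-table Input of the same label, UBA1, UBE2E3, UBE2G2 and UBE2N had positive ratios in both labels. There UBA2, UBE2D4, UBE2E2, UBE2H, UBE2J1, UBE2M and UBE2Z kept opposite signs.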

How the results depend on the processing

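No paired analysis was possible because each group holds 1 library and the labels carry no replicate numbers. The 2 counts of members with a peak and the count of members apart between Inputs stayed within 1.5 times under the alternatives run, except that a 1.5-fold call set 13 members apart between Inputs. The median ratio labelled DLD-1 stayed within the median counting interval except without a filter (0.33). That labelled SW480 was 0.43 without a filter, 0.42 after centring, 0.39 over the Input with the other label, 0.41 over the scaled acRIP-table Input of the same label and 0.47 over that of the other label. At a 1.5-fold call 19 members labelled SW480 were above Input and 1 below, and 5 labelled DLD-1 were below. No share of protein-coding genes was computed at a 1.5-fold call, here or between Inputs, so these counts cannot be set against it. Over the scaled acRIP-table Input of the other label, 7 labelled DLD-1 were above (11.7% of protein-coding genes) and 0 below, and 1 labelled SW480 was below. Centring put 1 labelled SW480 below. Labelled DLD-1, the Input of the other label put 0 below (4.51% of protein-coding genes), and the acRIP-table Input of the same label put 4 below. The shares of protein-coding genes below Input after centring or over the acRIP-table Inputs were not computed. Of 74 member ratios, UBA7 included, 61 left their counting interval over the scaled acRIP-table Input of the same label and 13 stayed. With the Input of the other label 64 left it and 10 stayed. Centring moved 31 beyond it, and a pseudocount of 0.1 FPKM moved 7. The ± errors thus do not cover the choice of Input. Over the scaled acRIP-table Input of the other label, 63 left the interval and 9 stayed. The other 2, the called ratios labelled SW480 of UBA2 (-0.14) and UBE2D4 (-0.13), changed sign. The cause was not tested. With the other Input, 2 of the 6 members called labelled SW480 and 9 of the 12 labelled DLD-1 kept their call. Shared member peaks were 16 in either list at an overlap of 50%. Depth limits members with few reads, such as UBE2V1, UBE2F, UBE2E2 and UBE2D4.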
